A study of Mus musculus with 2 samples.

Results

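A set of 7 genes of transcriptional regulators was followed in the air pouch membrane. It held the early growth response factors Egr1, Egr2 and Egr3 and their corepressors Nab1 and Nab2. The others were the repressor leukaemia/lymphoma-related factor (LRF, encoded by Zbtb7a) and serum response factor (Srf). All 7 were chosen by name, and every probe set that the platform annotation assigns to 1 of these 7 genes alone was taken. This gave 14 of the 45101 probe sets on the array, for 7 of the 18193 genes on it. No probe set named a member together with another gene. An air pouch forms when air is injected beneath the dorsal skin, and the membrane that comes to line it resembles synovium. MSU pouches had received 2 mg monosodium urate (MSU) crystals, the crystals that form in gouty joints, in 1 ml PBS. Control pouches had received 1 ml PBS alone. Both injections were on day 7 per the series record, whereas the study's text gives day 6. All 6 animals were female Balb/C mice aged 6 to 8 weeks. Membranes were dissected 9 h after injection, and RNA from 3 mice per condition was pooled and hybridized to 1 array.

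Egr factors are zinc finger proteins whose genes are switched on within minutes of a growth factor, cytokine or stress signal. Much of this induction runs from MAP kinases to SRF and its cofactors, which sit together on CArG boxes in the promoters of immediate early genes. Nab1 and Nab2 bind Egr1, Egr2 and Egr3 and restrain them, in part by recruiting the chromatin remodeller CHD4, and Nab2 is itself induced by Egr factors. LRF is a BTB zinc finger repressor known from work on osteoclasts and on blood cell development. The study followed Egr-1 mRNA as an early marker of the response. It took Nab2 and LRF, which these same arrays had not shown as differentially regulated, as negative controls in its PCR time course. There, Egr-1 mRNA peaked well before the 9 h at which membranes were taken for the arrays. At 9 h the study's PCR values were higher in MSU than in PBS membranes for Egr-1, and close to equal for Nab2 and LRF.

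Promoters are shown for the members whose windows hold a motif that SRF or Egr factors bind. Windows of 250 bases before the annotated transcription starts were available from RefSeq (assembly GRCm38.p6) for 5 of the 7 genes, and were searched on both strands for the CArG box consensus, which SRF binds, and for the Egr sites GCGTGGGCG and GCGGGGGCG. No window was available for Egr1 and Egr3, so their promoters were not searched. The matches did not overlap one another. Capitals mark the matches, and an Egr site on the other strand is read as its reverse complement.
Egr2, chr10:67537619-67537868, plus strand: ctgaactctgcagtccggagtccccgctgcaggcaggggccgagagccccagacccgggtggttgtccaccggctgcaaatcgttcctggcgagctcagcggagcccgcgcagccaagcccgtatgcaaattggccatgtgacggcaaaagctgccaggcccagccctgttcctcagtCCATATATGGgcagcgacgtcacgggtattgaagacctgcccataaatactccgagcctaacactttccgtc
Srf, chr17:46556163-46556412, minus strand: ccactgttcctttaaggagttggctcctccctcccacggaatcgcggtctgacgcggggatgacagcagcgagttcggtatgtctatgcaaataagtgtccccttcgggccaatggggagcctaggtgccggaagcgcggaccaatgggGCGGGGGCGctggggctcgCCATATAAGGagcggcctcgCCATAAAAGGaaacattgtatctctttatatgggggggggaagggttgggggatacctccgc
Nab1, chr1:52500449-52500698, minus strand: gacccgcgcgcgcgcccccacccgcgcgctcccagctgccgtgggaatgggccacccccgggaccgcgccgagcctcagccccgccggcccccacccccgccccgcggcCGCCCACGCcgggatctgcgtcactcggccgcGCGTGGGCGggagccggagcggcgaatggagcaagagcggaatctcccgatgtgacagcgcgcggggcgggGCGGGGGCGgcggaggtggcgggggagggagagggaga
Across 32851 promoter windows of this length, 1.47% held a CArG box, 0.536% the site GCGTGGGCG and 2.57% the site GCGGGGGCG. The Srf window held 2 CArG boxes, whose first bases lie 82 and 62 bases before the start, and 1 GCGGGGGCG site at 101 bases. For Egr2, 5 starts are annotated and the windows of 4 held a CArG box. Some of these windows overlap and hold the same box, so they are not all separate sites. In the window shown the box begins 72 bases before the start. Nab1 had 2 matches to GCGTGGGCG, at 141 and 109 bases, and 1 to GCGGGGGCG at 38 bases before the start. No match was found in the windows of Nab2 and Zbtb7a. A match describes letters in the window and is not evidence of binding.

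Each probe set, a group of short oligonucleotides that together read 1 transcript, gave 1 linear signal intensity per array. The authors had scaled both arrays to the same trimmed mean. A signal was taken as detected when it reached a floor of 74.1 on the MSU array or 64.6 on the control array, set so that as many probe sets lay above it as the study counted as detected. A ratio of MSU over control is called a fold when the 2 signals were both detected, and a bound is given against the floor when only 1 was. Since each condition was 1 array, the conditions could not be tested against each other, and all differences describe these 2 pools. The only internal measure of error is the disagreement between probe sets of the same gene. Among 4002 genes with at least 2 probe sets above the floor, the log2 ratios of a gene spanned a median of 0.37, with a pooled SD of 0.33. This spread holds no variation between mice or arrays. Ratios of the 3' to the 5' signal, a measure of RNA integrity, were 0.741 on the MSU array and 0.745 on the control array for Gapdh, and 1.18 on the MSU array and 1.17 on the control array for Actb.

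All 7 genes were detected in both pools, and none differed by 2-fold or more. For Nab2 and Zbtb7a this is no independent result. The study had picked as controls mRNAs that these same arrays had not called differentially regulated. Each gene was read from its brightest probe set by mean log2 signal. On this scale the log2 ratio lay above 0 for 5 genes (Egr1, Egr2, Nab1, Nab2 and Zbtb7a) and below 0 for 2 (Egr3 and Srf), with a median of 0.37 and a range of -0.47 to 0.88. Under scaling on the hybridization spike-ins, which lowers every log2 ratio by 0.46, Egr1, Nab2 and Zbtb7a came to lie below 0 as well. Over all 11155 measured genes, 3.7% were higher and 4.29% lower by 2-fold or more, and of all measured probe sets 4.11% and 3.32%, so a count of 0 among 7 genes and 14 probe sets is close to this background. The median log2 ratio of the 10045 genes with a fold was -0.052, with quartiles of -0.36 and 0.23. Egr1, Egr2, Nab1, Nab2 and Zbtb7a lay above the upper quartile and Srf below the lower one. Of the 14 probe sets, 12 were above the floor in both pools, 1 in the MSU pool alone and 1 in neither.

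**Figure D1:**
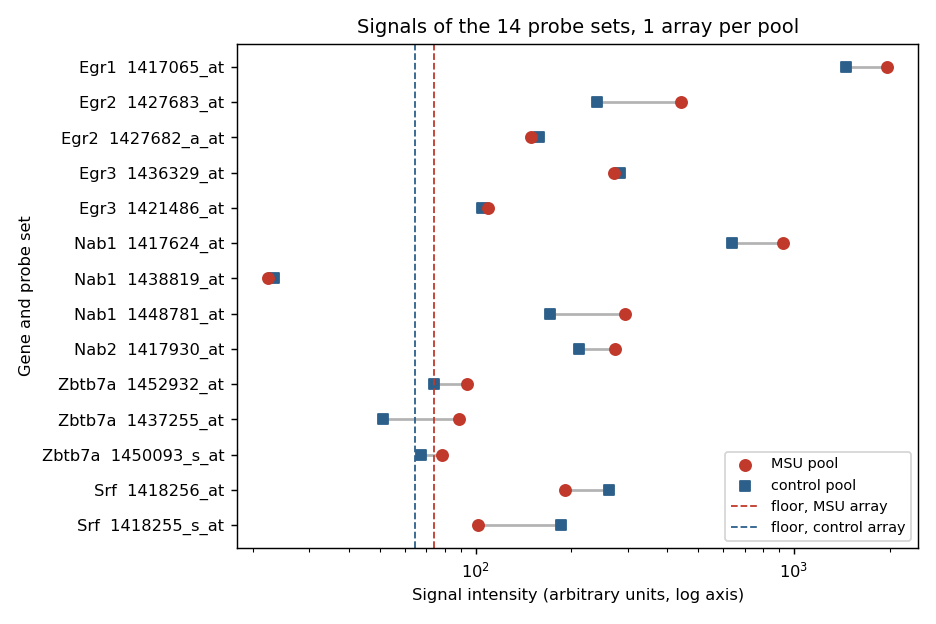
Signal intensity (x axis, log scale) of each of the 14 probe sets (y axis) in the MSU pool (red circles) and the control pool (blue squares), 1 array each, with the detection floors as dashed lines (74.1 and 64.6). Egr1 lies far to the right of the floors, the 3 Zbtb7a probe sets lie beside them, and 1 Nab1 probe set lies left of both.

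Among the Egr factors, Egr2 had the largest difference on 1 probe set, Egr1 a smaller one and Egr3 almost none. Egr1, the best studied immediate early factor, had 1 probe set, with a signal of 1967 in the MSU pool and 1462 in the control pool. Both signals were well above the floor, the MSU signal by 26.5 times, so Egr1 transcript was plentiful in PBS membranes too. The MSU signal was 1.35-fold higher (log2 0.43), but its log2 ratio was -0.028 under spike-in scaling. Of the genes with a fold, 1347 had a higher log2 ratio. With no second probe set and no second array, this value has no measure of error of its own.

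Egr2, which drives myelination in Schwann cells and limits T cell activation, was read by 2 probe sets that disagreed. The brighter, 1427683_at, had a signal of 441 in the MSU pool and 240.2 in the control pool and was 1.84-fold higher. The other, 1427682_a_at, had 149 in the MSU pool and 158 in the control pool, a log2 ratio of -0.089. The suffix of its name marks probes shared by several transcripts of the same gene. The log2 ratios of the pair were 0.97 apart, a span reached by 7.55% of the 4002 genes with several probe sets. By the brighter probe set the log2 ratio of 0.88 was exceeded by 433 genes, and by the mean of both, 0.39, Egr2 would lie near Egr1. A higher level of Egr2 in the MSU pool therefore rests on 1 of its 2 probe sets.

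Egr3, a related factor of lymphocytes and muscle spindles, had signals of 273 in the MSU pool and 283 in the control pool on its brighter probe set. The other gave 109 in the MSU pool and 105 in the control pool. Their log2 ratios, -0.056 and 0.061, lay on either side of 0 and differed by less than those of most genes, since 84.8% of genes with several probe sets spanned at least as much. Egr3 thus sat at the middle of the distribution, with 5056 genes above it and 4988 below. Egr4, the remaining Egr factor and not among the 7 genes, had signals of 12.5 in the MSU pool and 35.9 in the control pool, below the floor in both.

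**Figure D2:**
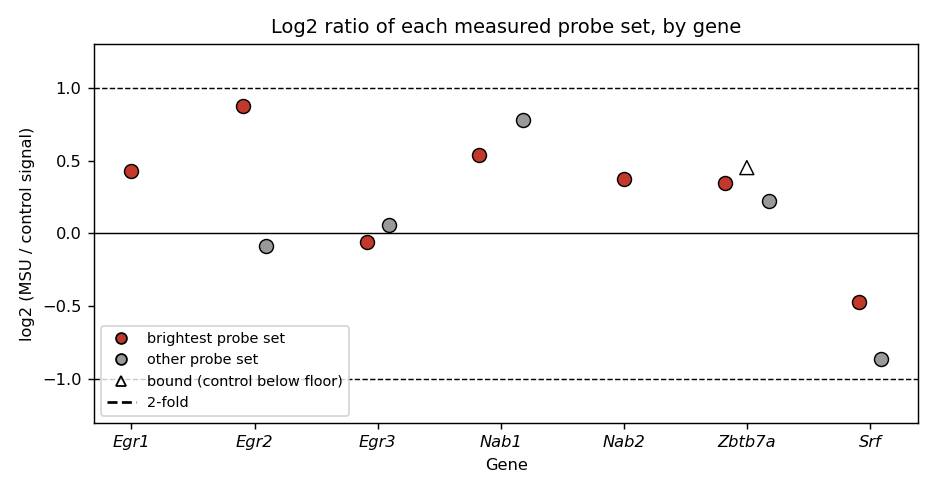
Log2 of MSU over control signal (y axis) for each probe set with a fold or a bound, by gene (x axis). Red points are the brightest probe set of a gene, grey points the others, the open triangle a bound of at least 1.37-fold, and dashed lines 2-fold. The 2 Egr2 points lie 0.97 apart, both Srf points lie below 0 and no point reaches 2-fold.

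Both Nab corepressors had log2 ratios above 0, although that of Nab2 lay below 0 under spike-in scaling. Nab1 had 3 probe sets. The brightest, 1417624_at, had a signal of 924 in the MSU pool and 637 in the control pool and was 1.45-fold higher. The next, 1448781_at, had 294 in the MSU pool and 172 in the control pool and was 1.71-fold higher. The last, 1438819_at, had signals of 22.3 and 23.3 in the MSU and control pools, below the floor in both, and gives no fold. The 2 usable probe sets thus put Nab1 higher in the MSU pool by log2 0.54 and 0.78, and both stayed above 0 with spike-in scaling, at 0.080 and 0.32. On the brightest probe set, 974 genes had a higher ratio than Nab1.

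Nab2, the corepressor that Egr factors induce, had 1 probe set, with a signal of 273 in the MSU pool and 211 in the control pool. It was 1.29-fold higher (log2 0.37), which spike-in scaling turned to -0.086. This log2 ratio lay 0.058 from that of Egr1, less than the 0.33 SD between probe sets of a gene, so the 2 cannot be ranked. Of the genes with a fold, 1618 had a higher ratio than Nab2. Its promoter window held none of the 3 motifs, whereas that of Nab1 held 3 Egr sites.

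LRF was measured close to the limit of detection. The brightest of the 3 Zbtb7a probe sets, 1452932_at, had a signal of 94.0 in the MSU pool and 74.1 in the control pool and was 1.27-fold higher (log2 0.34), with a log2 of -0.11 under spike-in scaling. A second, 1450093_s_at, had 78.7 in the MSU pool and 67.5 in the control pool, a 1.16-fold ratio. The last, 1437255_at, had 88.4 in the MSU pool and 51.1 in the control pool, which lay below the floor, and was at least 1.37-fold higher against it. All 3 ratios lay above 1, apart from spike-in scaling, which turned the 2 folds below it, and no MSU signal exceeded its floor by more than 1.27 times. With the floor at the 15000th brightest probe set of each array, no Zbtb7a fold could be given. Of its closest relatives, Zbtb7b (ThPOK, which directs CD4 T cell fate) had 502 in the MSU pool and 431 in the control pool on its brighter probe set (log2 0.22), and Zbtb7c had 106 in the MSU pool and 54.7, below the floor, in the control pool, or at least 1.64-fold higher.

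Srf was the member with the lowest ratio, and both of its probe sets gave values below 0. The brighter, 1418256_at, had a signal of 190.3 in the MSU pool and 263 in the control pool and was 1.38-fold lower (log2 -0.47). The other, 1418255_s_at, had 102 in the MSU pool and 185 in the control pool and was 1.81-fold lower (log2 -0.86). The suffix marks probes that can match more than 1 transcript or gene. The pair spanned 0.39, a span that 47.3% of genes with several probe sets reached, and 1920 genes had a lower ratio than the brighter one. Srf kept this direction under all the scalings tried. With spike-in scaling its log2 ratios were -0.92 and -1.32, so that only the second passed 2-fold.

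At 9 h, many other immediate early genes were higher in the MSU pool by more than any of the Egr, Nab or LRF genes. The earlier peak of Egr-1 mRNA that the study reported lies outside these values. Of 34 immediate early genes other than the Egr genes and Srf, all were measured, and 15 were higher and 1 was lower in the MSU pool by 2-fold or more, against 3.7% and 4.29% of all measured genes. Under spike-in scaling 7 were higher and 2 lower by this size, against 1.77% and 15.8% of all genes. The median log2 ratio of the 30 with a fold was 0.85, beside -0.052 over all genes. The list was written with the study's account of Dusp5 and of other members known, so it is no independent evidence of its direction. Fos, like Egr1 a classical target of SRF, had 2463 in the MSU pool and 1537 in the control pool (log2 0.68). The AP-1 subunits Fosl1 and Junb were 3.57-fold and 2.82-fold higher, the survival gene Ier3 2.81-fold, and the MAP kinase phosphatases Dusp2 and Dusp1 2.66-fold and 2.38-fold. Myc was 2.46-fold higher, and Zfp36, which degrades cytokine mRNAs, 2.37-fold. Phlda1 was 3.79-fold higher, Csrnp1 3.08-fold, Trib1 2.47-fold, Plk3 2.20-fold and Btg2 2.09-fold. Of the 15, 3 were below the floor in the control pool, with bounds of at least 6.64-fold for Dusp5, 2.86-fold for Maff and 2.40-fold for the nuclear receptor Nr4a3. Connective tissue growth factor (Ccn2), a target of YAP as well as of SRF, was 2.71-fold lower, with 809 in the MSU pool and 2190.0 in the control pool. The genes of this list nearest to Egr1 in log2 ratio over the 2 arrays were Mcl1 (0.45), Ccn1 (0.40) and Nr4a1 (0.56).

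The contractile and actin genes that SRF drives with the myocardin family showed the opposite balance. Of 27 such genes 24 were measured, 0 were higher and 9 lower by 2-fold or more, against 3.7% and 4.29% of all measured genes, with a median log2 ratio of -0.68 over the 23 with a fold. Under spike-in scaling, 13 were lower and 0 higher, against 15.8% and 1.77% of all genes. The LIM proteins Csrp2 and Csrp1 were 5.99-fold and 4.60-fold lower and the actin-binding protein Tagln 5.53-fold lower. The tropomyosins Tpm1 and Tpm2 were 3.71-fold and 2.53-fold lower, the smooth muscle actins Actg2 and Acta2 2.24-fold and 2.15-fold, and Fhl1 2.05-fold. The myosin light chain Myl9 had 62.1 in the MSU pool, below the floor, and 634 in the control pool, at least 8.55-fold lower. The ubiquitous actins Actb and Actg1 had log2 ratios of 0.40 and 0.38 and the non-muscle myosin Myh9 0.73. The SRF cofactors differed less. Mrtfa, which carries actin signals to SRF, had a log2 ratio of -0.54, Mrtfb of -0.23, and the ternary complex factors Elk3 and Elk4 of 0.37 and 0.14, while no fold or bound could be given for Elk1 and Myocd.

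Several muscle markers were lower in the same pool, where 4.29% of all measured genes were at least 2-fold lower. Of 8 smooth muscle markers 6 were measured and 4 were at least 2-fold lower, and the summed signal of all 8 was 2891 in the MSU pool and 7071 in the control pool. Of 10 skeletal muscle markers, all measured, 4 were at least 2-fold lower, with summed signals of 25586 in the MSU pool and 38669 in the control pool. The skeletal troponins Tnni2 and Tnnt3, the myosin Myh2 and Mylpf were 5.13-, 4.99-, 4.95- and 2.82-fold lower, and the other 6 did not reach 2-fold, among them skeletal actin (Acta1) and titin (Ttn) with log2 ratios of 0.20 and 0.11. On the marker lists, 7 smooth muscle genes and 1 skeletal muscle gene are also on the SRF target list. Without these, 5 of 18 measured SRF targets were at least 2-fold lower and the median log2 ratio was -0.43. The part of muscle tissue in the values of Srf and of its targets was not tested. In these whole membranes, fewer cells of a type and less RNA per cell cannot be told apart. The study found that control membranes differed in mRNA of a fat and a muscle marker. It proposed that small remnants of these tissues had stayed on them after dissection, and it pooled RNA to correct for this. Its 9 h PCR values, those of Nab2 and LRF among them, had no significant association with the fat and muscle markers. Srf was not among the mRNAs it followed by PCR. Whether the pools held unequal remnants was not tested.

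**Figure D3:**
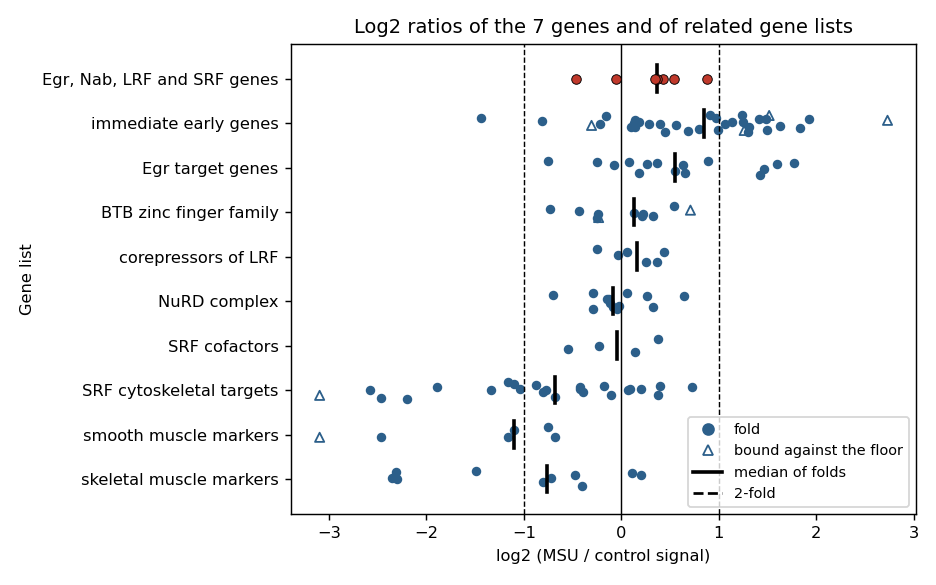
Log2 ratio of the MSU to the control signal (x axis) of the 7 genes (red) and for members of related gene lists and muscle markers (blue), with folds as points, bounds against the floor as triangles, medians of the folds as black bars and 2-fold as dashed lines. The immediate early genes have a median of 0.85 and the SRF cytoskeletal targets of -0.68, with the 7 genes between them at 0.37, which spike-in scaling lowers by 0.46 together with all other values.

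Genes that Egr factors are known to activate had a median log2 ratio of 0.55 over the 15 of 19 that were measured, and 0.10 with spike-in scaling. By 2-fold or more, 4 were higher and 0 lower, against 3.7% and 4.29% of all measured genes, and under spike-in scaling 3 were higher and 1 lower, against 1.77% and 15.8%. Vascular endothelial growth factor (Vegfa) had 987 in the MSU pool and 289 in the control pool and was 3.41-fold higher. The adhesion molecule Icam1 was 3.03-fold higher, the cell cycle inhibitor Cdkn1a 2.75-fold and the inhibitor of basic helix-loop-helix factors Id2 2.68-fold. These genes also have activators outside the Egr family. Tissue factor (F3), the prostaglandin synthase Ptges and Cd44 had log2 ratios of 0.55, 0.66 and 0.63, and the platelet-derived growth factors Pdgfa and Pdgfb 0.18 and -0.076. The cyclin Ccnd1 had a log2 ratio of -0.76 and heparanase (Hpse) of -0.25. For Fgf2, Fasl and Il2 no fold or bound could be given.

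The partners through which Nab proteins and LRF repress showed small differences. None of the 13 subunits of the NuRD complex, to which CHD4 belongs, differed by 2-fold, and their median log2 ratio was -0.087. Chd4 itself had 342 in the MSU pool and 363 in the control pool, its relative Chd3 a log2 ratio of -0.70, Mbd2 of 0.64 and Gatad2a of 0.32. None of 6 measured subunits of the corepressor complexes that bind BTB proteins differed by 2-fold either, with a median of 0.16, which lay at -0.30 under spike-in scaling. Sin3a, Bcor and Tbl1xr1 had the largest log2 ratios there, 0.44, 0.36 and 0.26. Among 12 other BTB zinc finger genes 9 had a fold and none of these reached 2-fold, with a median of 0.14, or -0.32 under spike-in scaling. The largest of these folds were those of Zbtb20 at -0.73, Zbtb46 at 0.54 and Hic1 at -0.43, while Zbtb7c and Bcl6b have only a bound. Of the myelin genes that Egr2 drives in Schwann cells, 4 were measured, namely Mag (0.17), Mal (-0.17), Pmp22 (-0.13) and Mbp (0.11), and none passed 2-fold.

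Markers of other cell types that the membrane could hold differed unequally between the pools. Of 8 measured neutrophil markers 7 were at least 2-fold higher, against 3.7% of all measured genes, and the summed signal of all 9 with a probe set was 21128 in the MSU pool and 2512 in the control pool. S100a9 and S100a8 were 12.1-fold and 10.6-fold higher, Ngp 9.00-fold, Mmp8 7.91-fold, Csf3r 3.85-fold and Mmp9 3.07-fold, and Cxcr2 at least 7.07-fold. The remaining one, lactoferrin (Ltf), had 161 in the MSU pool and 234 in the control pool (log2 -0.54). None of the 10 macrophage, 8 fibroblast, 5 endothelial and 4 Schwann cell markers with a fold differed by 2-fold, and their median log2 ratios were 0.035, 0.18, 0.076 and 0.14. These 4 medians lay at -0.42, -0.28, -0.38 and -0.32 under spike-in scaling. The largest log2 folds among them were Cd163 (0.96), Mrc1 (0.83) and Cd68 (-0.78) in macrophages, Pdgfra (0.59), Thy1 (-0.51) and Lum (-0.48) in fibroblasts, Tek (-0.50), Emcn (-0.26) and Cdh5 (0.11) in endothelium, and Sox10 (0.69) in Schwann cells. The endothelial marker Vwf had 22.9 in the MSU pool, below the floor, and 108 in the control pool, and was at least 1.46-fold lower. Of 6 adipocyte markers measured 5 were at least 2-fold lower, and the summed signal of all 7 with a probe set was 3517 in the MSU pool and 12999 in the control pool. Adipoq was 7.36-fold lower, Cidec 4.25-fold, Fabp4 3.97-fold, Retn 3.33-fold and Lpl 2.80-fold. Of 6 T cell markers 1 was measured, Cd8a, with a signal of 97.8 in the MSU pool and 98.2 in the control pool, and the T cell receptor subunits Cd3e, Cd3d and Cd3g lay below the floor in both. The part of these cell types in the Egr, Nab and LRF values was not tested.

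The scaling of the arrays decided the direction of 3 members. The hybridization spike-ins are control transcripts added at the hybridization step, so they do not measure the RNA content of a pool. They gave a stronger signal on the MSU array in 18 of 18 probe sets, with a median ratio of 1.37. These probe sets read only the bioB, bioC, bioD and cre transcripts, so they are not 18 independent values. Scaling on them moved the median of all genes by -0.46, to -0.51, and left the order of the 7 genes as it was. Relative to that median, each gene kept its distance. Egr2 and Nab1 stayed above 0 at 0.42 and 0.080, while Egr1, Nab2 and Zbtb7a lay at -0.028, -0.086 and -0.11 and Egr3 and Srf at -0.51 and -0.92. With quantile normalization or median scaling, no gene changed its direction.

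**Figure D4:**
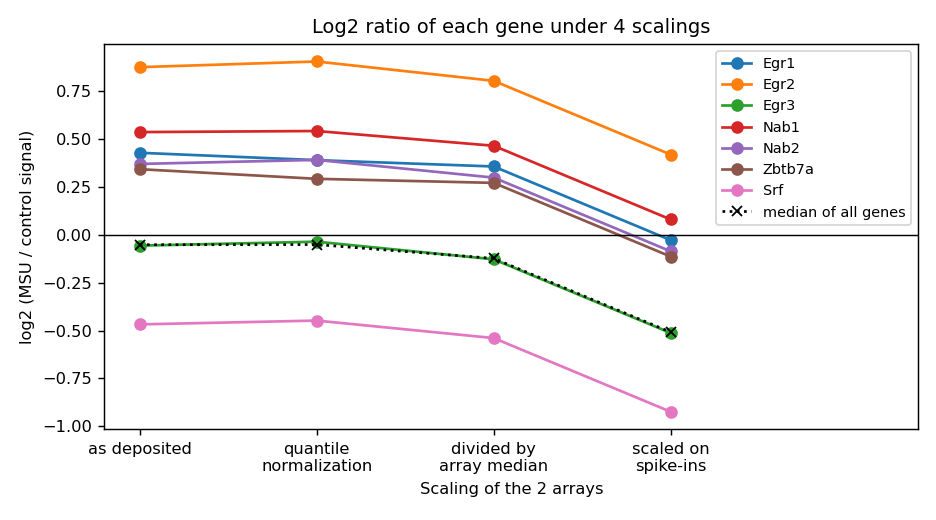
Log2 of MSU over control signal (y axis) of each gene, by its brightest probe set, under 4 scalings of the 2 arrays (x axis), with the median of all genes as a dotted line. All lines drop by 0.46 from the deposited values to spike-in scaling, where Egr1, Nab2 and Zbtb7a pass below 0 and Egr2 and Nab1 stay above it.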

How the data were processed

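RNA of dissected membranes, pooled from 3 mice per condition, had been hybridized to Affymetrix Mo430_2 arrays, 1 for MSU and 1 for control. The deposited signal intensities, on a linear scale, had been computed by the authors with Affymetrix GCOS (the submitters' processing notes name MAS5; versions are not given in the sources used here) and scaled by 1 factor per array, so that both trimmed means, without the top and bottom 2% of probe sets, were 150.001. They were used as deposited. The number of arrays limits the precision, and scaling assumes equal totals in both pools.

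Probe sets were named through the platform annotation, with symbols updated by gene identifier from RefSeq (GRCm38.p6). It gives 1 gene for 34945 probe sets, several for 932, which were not used, and none for 9211, and 13 named control probe sets were left out. Detection calls were not used here, and a probe set near the floor may have had another call. The size of 2-fold is a fixed limit and not a test, and no p-value was computed. The 7 genes and the 18 related lists were chosen with earlier results of these data known. Named are all members, their closest relatives, the 3 largest folds of each list and list members past 2-fold. The other list members named were chosen after their values were seen. Alternatives were other scalings, floors, a pseudocount, other probe sets and a size of 3-fold. The gene step was tested on simulated data. Computations used Python 3.11.15, pandas 2.3.3 and numpy 2.4.6.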

Additional observations from a re-analysis of the deposited data

How the results depend on the processing

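A value is described as moved when it changed by more than 0.33 on the log2 scale, the pooled SD between probe sets of a gene, or for a count by more than 1.5 times. Of 60 alternative values for the 7 genes, 10 moved. Of 68 for single probe sets, 13 moved, 12 of them under scaling on the spike-ins. In none of 9 alternatives did a member pass the size used on the value that represents the gene, although under spike-in scaling the other probe set of Srf lay at -1.32. Without spike-in scaling and other single probe sets, the log2 ratio ranged from 0.36 to 0.43 for Egr1, 0.39 to 0.91 for Egr2, -0.13 to 0.0023 for Egr3, 0.47 to 0.66 for Nab1, 0.30 to 0.39 for Nab2, 0.27 to 0.34 for Zbtb7a and -0.66 to -0.31 for Srf. The median over probe sets gave 0.39 for Egr2, and the other probe set of Egr2 gave -0.089 and that of Srf -0.86.

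Scaling on the spike-ins, which shifts all log2 ratios by the same amount, gave -0.028 for Egr1, 0.42 for Egr2, -0.51 for Egr3, 0.080 for Nab1, -0.086 for Nab2, -0.11 for Zbtb7a and -0.92 for Srf. List medians were then 0.39 for immediate early genes, -0.50 for SRF cofactors, -1.13 for SRF cytoskeletal targets, 0.10 for Egr targets, -0.54 for NuRD, -0.32 for BTB zinc finger genes, -0.30 for the corepressors of LRF and -0.47 for the myelin genes. Of all genes, 200 were higher and 1787 lower by 2-fold or more, in place of 413 and 478, so that higher genes made up 10.1% in place of 46.4%. The counts became 7 higher and 2 lower for immediate early genes, and 1 lower each for Egr targets, NuRD and BTB genes.

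With no floor, 1623 genes were higher and 1724 lower. With the floor as a pseudocount, 330 were higher and 217 lower. At 3-fold, 164 were higher and 80 lower, and the counts were 4 higher and 0 lower for immediate early genes, 5 lower for SRF targets and 2 higher for Egr targets. Without muscle markers, an alternative chosen after seeing the data, 5 SRF targets were at least 2-fold lower. No paired analysis was possible because there is 1 array per condition, and adding probe sets shared with other genes gave no value, since none names a member.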
